A study of Rattus norvegicus with 4 samples.

Results

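The 9 genes followed here act in blood coagulation and clot breakdown, and were measured in nuclei from rat hearts. They are F3, Thbd, Procr, Vwf, Thbs1, F13a1, Plat, Plau and Plaur. They were taken by gene symbol from the deposited gene table, which held 1 row for each, 9 of 32623 genes in all, and every one had UMIs (unique molecular identifiers, 1 per captured RNA molecule) in every library. The labels describe single-nucleus RNA sequencing of the infarct zone of Sprague Dawley rats, with 1 sample each of a sham control (Sham) and of infarction groups of 1, 6 and 24 h (MI_1H, MI_6H and MI_24H). For the infarction groups the treatment label speaks of reperfusion, whereas the series text describes ligation of the left anterior descending coronary artery for these times. The age, the sex and the number of rats per sample are stated by no source used here. No source ties the barcode suffixes 1 to 4 of the matrix to the samples, so the libraries are called 1 to 4 here. No library can be set against sham, no group has a replicate, and no p-value is given. Every interval below is a 95% interval of counting error alone.

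Coagulation starts when blood meets tissue factor, the product of F3, which binds factor VII and leads to thrombin. Thrombin turns fibrinogen into fibrin and activates factor XIII, whose A chain (F13a1) crosslinks the fibrin. On endothelium, thrombomodulin (Thbd) and the endothelial protein C receptor (Procr) turn thrombin towards activating the anticoagulant protein C. Von Willebrand factor (Vwf), stored in endothelial granules, tethers platelets, and thrombospondin 1 (Thbs1) is a matrix protein of platelets and injured tissue that binds cells and activates latent TGF-beta. Fibrin is dissolved by plasmin, made from plasminogen by the tissue activator Plat and by urokinase, Plau, which acts at its cell surface receptor Plaur.

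RefSeq promoter sequences (build GRCr8) were given for 5 of the 9 genes. The 250 bases before the annotated gene start are shown for a receptor and a matrix gene that were both lowest in library 1 (Plaur and Thbs1), for a gene highest in endocardial-like nuclei (Procr) and for the gene of resident macrophages (F13a1). They are written 5′ to 3′, and capitals mark a match to the AP-1 motif TGANTCA, searched on both strands.
Plaur, chr1:89181113-89181362, forward strand: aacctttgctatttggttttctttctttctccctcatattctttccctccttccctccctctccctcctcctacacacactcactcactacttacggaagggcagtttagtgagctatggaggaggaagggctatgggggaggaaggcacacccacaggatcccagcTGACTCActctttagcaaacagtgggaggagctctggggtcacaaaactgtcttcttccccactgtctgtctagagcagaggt
Procr, chr3:164714477-164714726, forward strand: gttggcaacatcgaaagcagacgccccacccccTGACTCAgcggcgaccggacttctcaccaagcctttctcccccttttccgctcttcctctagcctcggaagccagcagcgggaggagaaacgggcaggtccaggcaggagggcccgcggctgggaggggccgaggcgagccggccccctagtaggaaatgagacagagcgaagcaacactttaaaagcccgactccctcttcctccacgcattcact
Thbs1, chr3:125510000-125510249, forward strand: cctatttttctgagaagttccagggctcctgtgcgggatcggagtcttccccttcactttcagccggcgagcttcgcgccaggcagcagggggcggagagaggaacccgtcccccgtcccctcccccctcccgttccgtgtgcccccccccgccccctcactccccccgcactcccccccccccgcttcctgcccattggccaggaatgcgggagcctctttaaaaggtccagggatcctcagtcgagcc
F13a1, chr17:28020947-28021196, forward strand: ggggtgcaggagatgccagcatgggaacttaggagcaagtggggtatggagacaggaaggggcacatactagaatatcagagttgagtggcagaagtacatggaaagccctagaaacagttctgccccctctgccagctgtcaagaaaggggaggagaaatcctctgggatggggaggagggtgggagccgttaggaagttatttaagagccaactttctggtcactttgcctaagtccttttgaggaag
Plaur and Procr each held 1 match to TGANTCA, starting 83 and 217 bases before the gene start. That motif stood in 6.36% of 27457 promoter windows of this length. Thbs1 held 2 matches and Plau 3 to the GC box GGGCGG, found in 32.4% of windows. The motif CACCC occurred 2 times in F13a1 and once each in Plaur and Procr, and in 49.4% of windows. The hypoxia motif GCGTG, present in 27.2% of windows, was matched in Procr and Plau. The hypoxia motif ACGTG, the TATA box TATAAA and the consensus motifs of ERR, NF-kB and CArG-box factors had no match in these 5 windows and stood in 16.9%, 13.1%, 0.368%, 6.41% and 1.5% of all windows. A match describes letters and not a bound site.

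After filtering, libraries 1 to 4 held 8363, 12897, 14287 and 6181 nuclei with median depths of 1296, 602, 1884 and 2215 UMIs. Clusters were named from marker genes that include none of the 9 genes, which were also kept out of the genes used for clustering. Each name carries "-like", since it was given by markers and by nothing else. Library 2 stood apart: 92.1% of its nuclei and 78.2% of its UMIs fell in unnamed clusters, against 0.287%, 6.96% and 16.0% of nuclei in libraries 1, 3 and 4. Of its named nuclei, 482 were cardiomyocyte-like, 144 pericyte-like, 137 endothelial-like, 58 fibroblast-like and 50 neutrophil-like, and its other classes had fewer than 50. Of the 11 classes, 4 also split by library: library 1 filled clusters of its own for cardiomyocyte-like, fibroblast-like, endothelial-like and resident macrophage-like nuclei, while libraries 3 and 4 shared theirs. Values are summed UMIs of a class in a library scaled to 1e+06 UMIs of that class (counts per 1e+06, CPM), for classes of at least 50 nuclei. The libraries shared 264 barcode sequences (529 barcodes). RNA from broken cells can add UMIs to any nucleus. Its upper estimate, from genes that a class should lack, was 23.6% to 35.9% of UMIs in cardiomyocyte-like, endothelial-like and fibroblast-like nuclei of library 1 and 47.8% to 74.0% in those of the other libraries.

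A gene was called high in a class when its CPM was at least 2-fold above that of all other named nuclei in every library with 50 nuclei of the class. Of 9 genes measured, 2 passed in endothelial-like nuclei (Vwf and Procr), where 3.49% of all genes measured passed. In macrophage-like nuclei 2 of 9 passed (F13a1 and Plau), beside 5.65% of all genes. In fibroblast-like and cardiomyocyte-like nuclei 0 of 9 passed, beside 3.83% and 5.10%. In lymphatic endothelial-like nuclei 0 of 6 measured genes passed, beside 4.26%, and in pericyte-like nuclei 0 of 7, beside 2.28%. The other 5 genes each missed the rule in at least 1 library. Without library 2, 7 pairs of gene and class passed, and the added pairs were F3 in fibroblast-like and Thbd and Plat in endothelial-like nuclei.

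**Figure D1:**
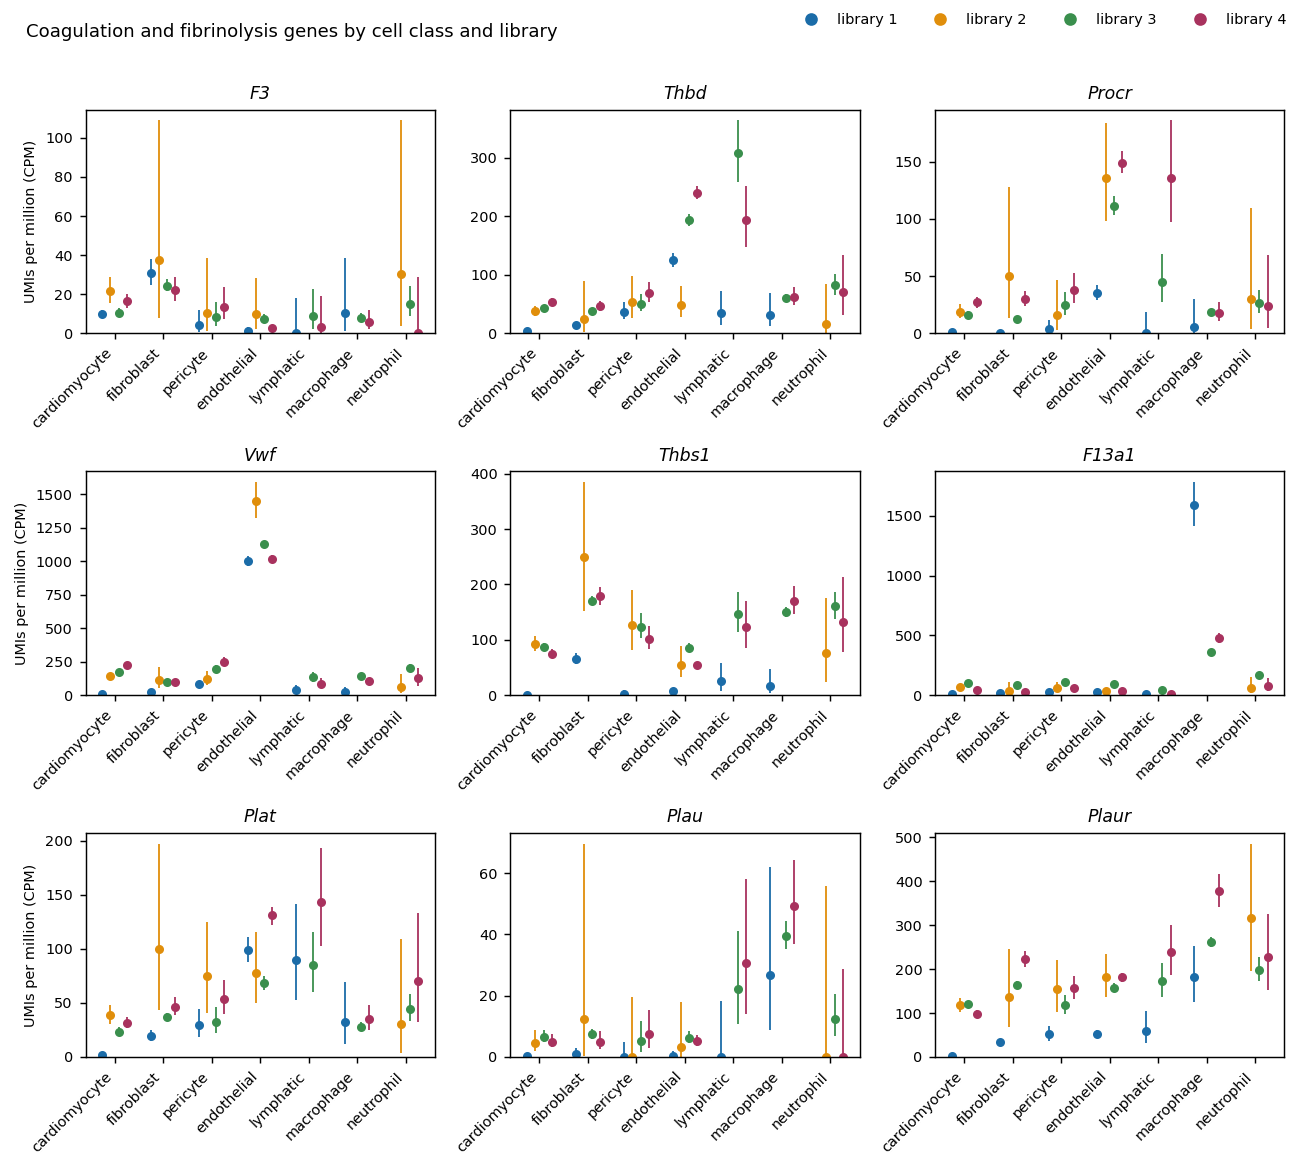
CPM of the 9 genes (y axis, linear) in 7 cell classes (x axis) by library (colours); points are summed UMIs of a class and library with at least 50 nuclei and bars are exact 95% Poisson intervals. Vwf and Procr stand highest in endothelial-like nuclei of all 4 libraries, F13a1 and Plau in macrophage-like nuclei, and Thbs1 and Plaur are lowest in library 1 in cardiomyocyte-like, fibroblast-like, endothelial-like and pericyte-like nuclei.

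Vwf was the clearest endothelial gene. Its CPM in endothelial-like nuclei was 998, 1449, 1126 and 1019 in libraries 1 to 4, against 18.5, 139, 136 and 178 in all other named nuclei. The ratio was 53.9 (47.2 to 61.8) in library 1 and fell between 5.73 and 10.5 in the other libraries. Endothelial-like nuclei held 92.7% of the Vwf UMIs of library 1 with 19.1% of all its UMIs, and 60.1% and 72.4% in libraries 3 and 4 with 16.4% and 34.5% of all UMIs. The level in endothelial-like nuclei spanned 1.45-fold over the libraries. That small span depends on the clustering: 98 of the 137 endothelial-like nuclei of library 2 were endocardial-like, and by the finer clustering described next, with 891 such nuclei, Vwf was at 521 CPM in library 2. In cardiomyocyte-like nuclei Vwf was at 8.99, 142, 169.5 and 227 CPM, with library 1 far below the rest. The free RNA estimate of this class was 35.9%, 69.5%, 74.0% and 65.9%, also lowest in library 1. Over all nuclei of libraries 1 to 4 Vwf was at 206, 250.3, 307 and 486 CPM. With the estimated free RNA subtracted, Vwf came to 0 in cardiomyocyte-like nuclei of all 4 libraries. The part of free RNA in these values was not tested.

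Within the endothelium Vwf was highest in endocardial-like nuclei, the lining of the heart chambers. There it reached 2578, 1505, 2165 and 1799 CPM, against 866, 741 and 854 in the other endothelial-like nuclei of libraries 1, 3 and 4. The ratios were 2.98 (2.72 to 3.26), 2.92 (2.79 to 3.06) and 2.11 (2.00 to 2.22). A finer clustering, tried as an alternative, split off venous-like and arterial-like nuclei and gave library 2 its 891 endothelial-like nuclei, among which the endocardial-like ones stood 3.88-fold (3.41 to 4.41) above the rest. In it Vwf was at 1121 and 1275 CPM in venous-like nuclei of libraries 3 and 4 and at 215, 621 and 629 CPM in arterial-like nuclei of libraries 1, 3 and 4. The remaining endothelial-like nuclei had 919.9, 365, 330.1 and 386 CPM. In libraries 3 and 4 the order was therefore endocardial, venous, arterial and then the remainder, with no overlap of intervals between neighbours. In library 1 the remainder stood above the arterial-like nuclei, and 16 nuclei were called venous-like, too few for a value. The remainder came from a different cluster in library 1, in library 2 and in libraries 3 and 4.

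**Figure D2:**
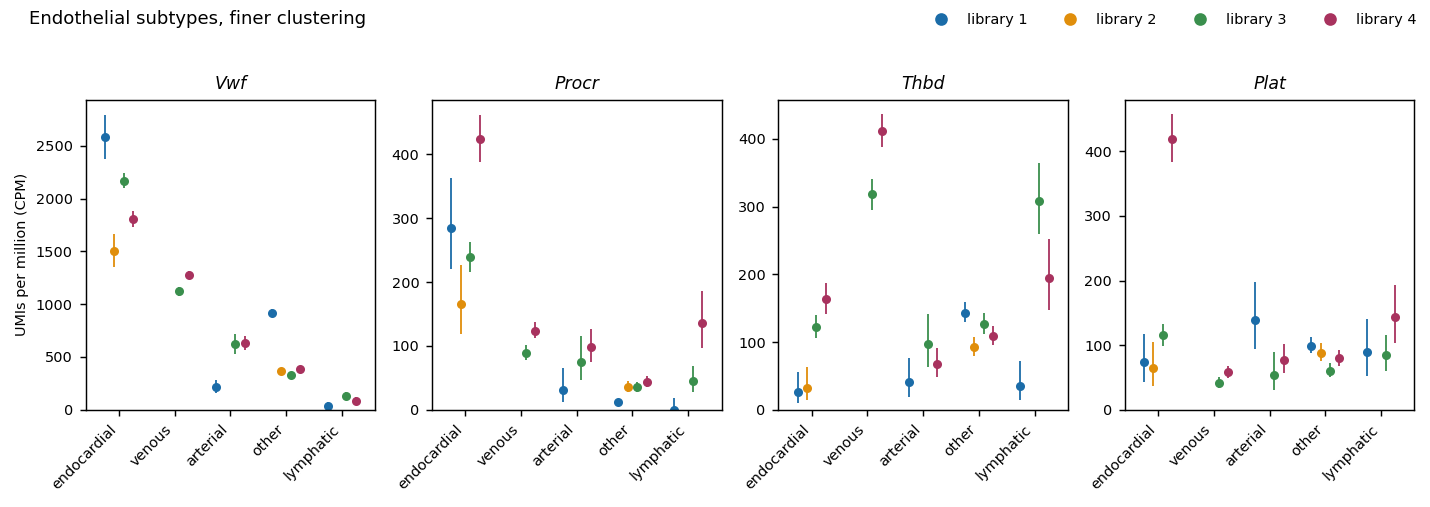
CPM (y axis, linear) of Vwf, Procr, Thbd and Plat in endothelial subtypes of the finer clustering and in lymphatic endothelial-like nuclei (x axis), by library (colours), with exact 95% Poisson intervals and at least 50 nuclei a point. Vwf and Procr are highest in endocardial-like nuclei, Thbd in venous-like and lymphatic nuclei of libraries 3 and 4, and Plat in endocardial-like nuclei of library 4.

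Procr, the protein C receptor, was more concentrated in endocardium than Vwf in libraries 1, 3 and 4, by its ratio to other endothelial-like nuclei. Its CPM in endocardial-like nuclei was 284, 169, 239 and 424, and 14.1, 64.1 and 91.1 in the other endothelial-like nuclei of libraries 1, 3 and 4. The ratios were 20.1 (13.3 to 30.7), 3.72 (3.20 to 4.33) and 4.65 (4.11 to 5.26), all above those of Vwf in the same libraries. The share of endocardial-like nuclei with a Procr UMI was 21.3%, 27.6%, 40.4% and 64.8%, with median depths of 1212, 1999, 2618 and 4140 UMIs in the same order. In cardiomyocyte-like nuclei, taken as a class that should lack it, the share was 0.261%, 7.05%, 6.88% and 11% at median depths of 2596, 2292, 4398 and 5120 UMIs. Over all endothelial-like nuclei Procr was at 35.0, 136, 111 and 149 CPM. Library 1 was lowest, 4.26-fold (3.48 to 5.26) below library 4, and the other 3 libraries lay within 1.34-fold of each other. By the finer clustering the value of library 2 was 50.6 CPM. The span fell under 4-fold with median-of-ratios scaling and with doublets left in. In fibroblast-like nuclei of library 1 a single Procr UMI was seen in 2360 nuclei (0.348 CPM).

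Thrombomodulin was lower in endocardial-like nuclei than in the rest of the endothelium. Thbd was at 25.8, 32.1, 122 and 162 CPM in endocardial-like nuclei and at 133, 219.8 and 257 CPM in the other endothelial-like nuclei of libraries 1, 3 and 4. The ratios of the first to the second were 0.194 (0.0707 to 0.426), 0.555 (0.476 to 0.644) and 0.632 (0.543 to 0.733), the opposite direction to Procr, its partner in protein C activation. By the finer clustering venous-like nuclei carried most: 318 and 412 CPM in libraries 3 and 4, where 43.0% and 55.7% of these nuclei had a Thbd UMI, beside 19.3% of cardiomyocyte-like nuclei in each of these libraries. Against the other endothelial-like clusters this was 2.59-fold (2.31 to 2.91) and 3.47-fold (3.12 to 3.86) higher. The endothelial-like remainder had 143, 92.5, 127 and 109 CPM, and arterial-like nuclei 40.4, 97 and 67.6 CPM in libraries 1, 3 and 4. In libraries 3 and 4 the endocardial-like values of 122 and 162 CPM lay above these arterial-like values. Beside the remainder they were near it in library 3 and above it in library 4. The lower endocardial-like level in libraries 3 and 4 thus did not hold against every subtype.

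Lymphatic endothelial-like nuclei showed the widest span of any of the 9 genes in its leading class, the class with the highest median CPM over libraries. Thbd was at 34.7, 308 and 194 CPM there in libraries 1, 3 and 4, from 7, 138 and 57 UMIs. Library 3 was 8.87-fold (4.19 to 22.5) above library 1. Of the 2 genes led by this class (Thbd and Plat) 1 spanned at least 4-fold, and 15.7% of all genes measured there did. For the 2 genes led by endothelial-like nuclei (Procr and Vwf) it was 1, beside 25.1% of all genes. It was 0 of the 2 genes led by fibroblast-like nuclei (F3 and Thbs1), beside 25.0%, and 1 of the 3 led by macrophage-like nuclei (F13a1, Plau and Plaur), beside 12.5%.

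Plat, the tissue plasminogen activator, was highest in endothelial-like nuclei in library 1, whereas in libraries 2 to 4 another class stood higher. In endothelial-like nuclei it was at 98.8, 77.6, 68.1 and 131 CPM, and the ratios to other named nuclei were 9.60 (7.78 to 11.9), 1.69 (1.04 to 2.64), 2.11 (1.88 to 2.36) and 3.06 (2.73 to 3.44). Lymphatic endothelial-like nuclei had 89.2, 84.7 and 143 CPM in libraries 1, 3 and 4, with intervals that overlapped those of endothelial-like nuclei in all 3 libraries. Fibroblast-like nuclei had 99.7 CPM in library 2, from 8 UMIs. Schwann-like or neuronal-like nuclei had 65.9, 105 and 76.5 CPM in libraries 1, 3 and 4, from 9, 15 and 13 UMIs. The endocardial-like value stood out in 1 library: 73.2, 60.2, 115 and 415 CPM in libraries 1 to 4. Library 4 was 3.62-fold (3.06 to 4.28) above library 3 and 5.68-fold (3.51 to 9.82) above library 1. It rested on 512 UMIs, 18.9% of them in 1 nucleus, and 33.2% of the endocardial-like nuclei of library 4 had a Plat UMI, against 15.6% in library 3. Their median depths were 4140 and 2618 UMIs, and 14.9% and 12% of cardiomyocyte-like nuclei had one. In the other endothelial-like nuclei Plat was at 101, 50.7 and 70.1 CPM in libraries 1, 3 and 4. The endocardial value was 5.93-fold (5.20 to 6.77) above these in library 4 and 2.26-fold (1.86 to 2.75) in library 3, and in library 1 the ratio was 0.725 (0.416 to 1.18). Vwf in the same endocardial-like nuclei was lower in library 4 than in library 3, by 1.20-fold (1.14 to 1.27).

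F13a1 marked resident macrophages. Macrophage-like nuclei had 1592, 364 and 480.3 CPM in libraries 1, 3 and 4, against 13.7, 94.2 and 39.6 CPM in all other named nuclei. They held 58.5% of the F13a1 UMIs of library 1 while taking 1.20% of all its UMIs. Library 1 was 4.37-fold (3.87 to 4.93) above library 3, but the classes differ in makeup: 181 of the 198 macrophage-like nuclei of library 1 were resident macrophage-like, named from markers of long-lived tissue macrophages. By the finer clustering resident macrophage-like nuclei were found in 3 libraries (174, 815 and 123 nuclei), and F13a1 in them was at 1795, 769.7 and 1349 CPM. The difference between libraries 1 and 3 was then 2.33-fold (2.05 to 2.64). The share of these nuclei with an F13a1 UMI was 48.9%, 50.3% and 53.7% at unequal median depths of 801, 2014 and 1785 UMIs, beside 1.38%, 22.4% and 11.8% of cardiomyocyte-like nuclei. The other macrophage-like nuclei had 237 and 197 CPM in libraries 3 and 4.

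Urokinase and its receptor were highest in other macrophage clusters than F13a1. Plau was sparse, with 11, 86, 564 and 175 UMIs in libraries 1 to 4. In macrophage-like nuclei it was at 26.6, 39.5 and 49.1 CPM in libraries 1, 3 and 4, the first from 5 UMIs, and the ratios to other named nuclei were 68.5 (16.5 to 269), 4.97 (4.17 to 5.93) and 8.54 (5.99 to 12.1). By the finer clustering 1 cluster, number 21, led by Dgki, Pax8, Tec and Mertk, had 67.7 and 86.8 CPM in libraries 3 and 4. That was 3.14-fold (2.47 to 4.01) and 3.46-fold (1.88 to 6.66) that of the remaining macrophage nuclei. Cluster 6, whose leading genes include Adgre4, Ptpro and Pou2f2, had 11.5 and 13.5 CPM, and the resident cluster 34.3 and 41.0 CPM. Lymphatic endothelial-like nuclei had 0, 22.3 and 30.7 CPM in libraries 1, 3 and 4, from 0, 10 and 9 UMIs, and dendritic-like nuclei 14.0 and 33.7 CPM in libraries 3 and 4.

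**Figure D3:**
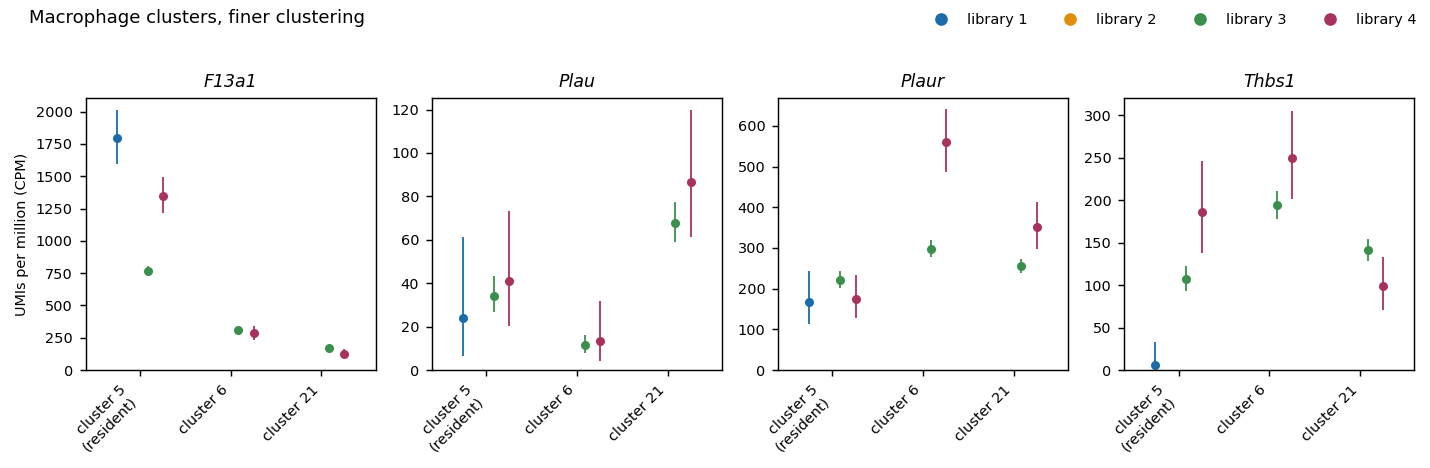
CPM (y axis, linear) of F13a1, Plau, Plaur and Thbs1 in 3 macrophage-like clusters of the finer clustering (x axis) by library (colours), with exact 95% Poisson intervals; library 2 had under 50 nuclei in each and library 1 only in cluster 5. In libraries 3 and 4 F13a1 is highest in cluster 5, Plau in cluster 21, and Plaur and Thbs1 in cluster 6.

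UMIs of Plaur, the urokinase receptor, were spread over many classes. Macrophage-like nuclei had 181, 261 and 378 CPM in libraries 1, 3 and 4, and neutrophil-like nuclei 317, 199 and 227 CPM in libraries 2, 3 and 4. Within the macrophages cluster 6 was highest, at 298 and 559.9 CPM, which was 1.23-fold (1.13 to 1.35) and 1.97-fold (1.62 to 2.41) that of the remaining macrophage nuclei. The same cluster was lowest for Plau, so ligand and receptor were not highest in the same macrophage nuclei. In the 3 largest classes outside macrophages Plaur was lowest in library 1. Cardiomyocyte-like nuclei had 1.56, 118, 119.6 and 97.7 CPM, fibroblast-like nuclei 33.8, 137, 164 and 222 CPM, and endothelial-like nuclei 53.4, 181, 158 and 181 CPM. With the estimated free RNA subtracted, cardiomyocyte-like nuclei came to 0 CPM in all 4 libraries. Fibroblast-like nuclei then had 36.3, 92.3, 144 and 255 CPM, and endothelial-like nuclei 65.4, 175, 119.7 and 178 CPM. Macrophage-like nuclei had 220.4, 349 and 506 CPM in libraries 1, 3 and 4, and passed the 2-fold rule under that subtraction. The part of free RNA in these values was not tested.

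Thbs1 had its highest value in fibroblast-like nuclei in every library, but the interval overlapped that of another class in each library. In libraries 1 to 4 these classes included lymphatic endothelial-like, pericyte-like, neutrophil-like and macrophage-like nuclei respectively. Fibroblast-like nuclei had 65.9, 249, 171 and 179 CPM, the value of library 2 from 20 UMIs. The ratio to other named nuclei was 22.1 (15.5 to 32.2) in library 1, but 2.73 (1.64 to 4.30), 1.54 (1.45 to 1.64) and 2.38 (2.13 to 2.66) in libraries 2 to 4. Fibroblast-like nuclei held 82.9% of the Thbs1 UMIs of library 1 with 18.3% of all UMIs, and 34.6% and 23.2% in libraries 3 and 4 with 26.0% and 12.7%. Macrophage-like nuclei had 16.0, 151 and 171 CPM in libraries 1, 3 and 4, the first from 3 UMIs, and cluster 6 was again the highest of their clusters, at 194 and 249 CPM. Neutrophil-like nuclei had 75.5, 161 and 133 CPM in libraries 2, 3 and 4, and lymphatic endothelial-like nuclei 24.8, 147 and 123 CPM in libraries 1, 3 and 4. In cardiomyocyte-like nuclei Thbs1 was at 0.959 CPM in library 1 (8 UMIs in 2686 nuclei) and at 92.6, 87.2 and 74.7 CPM in libraries 2 to 4. After subtraction of the estimated free RNA the fibroblast-like values were 80.3, 313, 225 and 248 CPM, with library 1 still lowest, and the cardiomyocyte-like values 0, 0, 0 and 28.2 CPM.

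Library 1 was lowest in all of the 4 classes that had 50 nuclei in every library (cardiomyocyte-like, endothelial-like, fibroblast-like and pericyte-like) for 5 of 7 genes measured: Procr, Vwf, Thbs1, F13a1 and Plaur. Of all 9908 genes measured, 19.1% were lowest in library 1 in all 4 classes. With median-of-ratios scaling the count was 4 of 7, Vwf being lost, beside 13% of all genes. The Vwf count also rests on the pooled endothelial-like class: in endocardial-like nuclei (2578 CPM) and in the other endothelial-like nuclei (866 CPM) library 1 was the highest library. For Procr library 1 was above libraries 2 and 3 in endocardial-like nuclei, though lowest in the other endothelial-like nuclei of libraries 1, 3 and 4. With median-of-ratios scaling the pooled Vwf values were 1101, 1320.5, 1079 and 961, with library 4 lowest. This rule was chosen after the values were seen, and the free RNA estimates were also lowest in library 1 in these 4 classes. With that RNA subtracted, none of the 5 genes was lowest in library 1 in all 4 classes. F13a1 then had 17.1, 0, 0 and 0 CPM in endothelial-like nuclei, and Thbs1 2.70, 0, 1.64 and 1.82. Plaur had 69.3, 41.8, 0 and 63.4 CPM in pericyte-like nuclei, and Vwf and Procr were at 0 in every cardiomyocyte-like value. Library 1 stayed lowest for Thbs1 and Plaur in fibroblast-like and for Vwf and Procr in endothelial-like nuclei. The part of free RNA in the count was not tested. To set the depths equal, nuclei were thinned to 500 UMIs. Then 2.63%, 12.1%, 7.84% and 6.92% of fibroblast-like nuclei had a Thbs1 UMI, from 4.45%, 20.7%, 33.6% and 27.1% before thinning, at median depths of 1012, 1016, 2908 and 2637 UMIs. In cardiomyocyte-like nuclei the thinned shares were 0.0372%, 3.73%, 4.53% and 2.15%, the first from 1 nucleus. For Plaur in fibroblast-like nuclei the thinned shares were 1.40%, 5.17%, 7.70% and 8.16%, from 3.43%, 15.5%, 34.8% and 36.5%, and in cardiomyocyte-like nuclei 0.0745%, 5.19%, 4.97% and 4.30%. At equal depth library 1 was again lowest for both genes in both classes, but thinning does not take out free RNA. With the estimated free RNA subtracted, Plaur came to 0 CPM in cardiomyocyte-like nuclei of all 4 libraries. Thbs1 came to 0, 0, 0 and 28.2 CPM in them. Library 1 was then no lower than libraries 2 and 3 in that class.

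**Figure D4:**
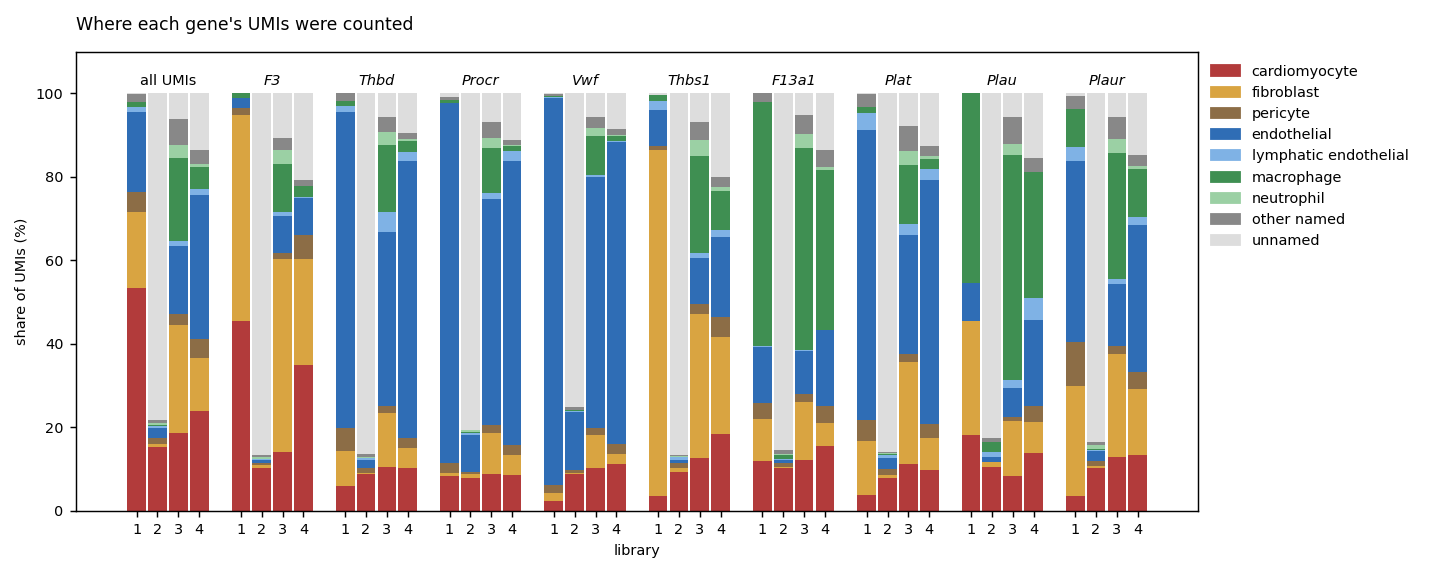
Share of UMIs (y axis, percent) by cell class (colours) for all genes together and for each of the 9 genes, with 1 bar for each of libraries 1 to 4 (x axis). Unnamed nuclei hold most UMIs of library 2 for every gene, endothelial-like nuclei most Vwf UMIs of libraries 1, 3 and 4, and macrophage-like nuclei a larger share of F13a1 UMIs than of all UMIs.

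F3, the gene of tissue factor and the starter of coagulation, was highest in fibroblast-like nuclei of the 7 classes plotted. Fibroblast-like nuclei had 30.7, 37.4, 24.3 and 22.1 CPM, the second from 3 UMIs. Cardiomyocyte-like nuclei had 9.71, 21.4, 10.4 and 16.3 CPM, and endothelial-like nuclei had 1.34, 9.70, 7.41 and 2.84 CPM, from 4, 3, 47 and 20 UMIs. The intervals of fibroblast-like and cardiomyocyte-like nuclei lay apart in libraries 1 and 3 and overlapped in libraries 2 and 4. In fibroblast-like nuclei the highest and lowest library differed 1.70-fold (0.340 to 5.21), an interval set by the 3 UMIs of library 2. By the finer clustering, with 802 such nuclei in library 2, F3 was at 30.3, 37.2, 24.0 and 18.4 CPM, and library 2 was 2.02-fold (1.42 to 2.85) and library 1 1.65-fold (1.20 to 2.26) above library 4. Cardiomyocyte-like nuclei, with 53.3% and 23.8% of all UMIs of libraries 1 and 4, gave 45.5% of the F3 UMIs of library 1 and 35.0% of those of library 4, against 49.4% and 25.2% from fibroblast-like nuclei. With the estimated free RNA subtracted, F3 was at 8.47, 0, 0.844 and 24.1 CPM in cardiomyocyte-like nuclei. In fibroblast-like nuclei it was then at 36.0, 39.6, 38.6 and 31.5 CPM. The part of free RNA in the F3 values was not tested. The finer clustering separated epicardial-like or mesothelial-like nuclei, the outer layer of the heart. In library 3 they had 62.0 CPM of F3 (36.1 to 99.3, 17 UMIs in 59 nuclei), 4.69-fold (2.71 to 7.59) above other named nuclei, and 131 CPM of Plat (92.0 to 182).

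The remaining genes of the pathway were taken from a list of 60, of which 58 were in the matrix. In all, 14 pairs of gene and class passed the 2-fold rule in every library: 4 in endothelial-like nuclei (Entpd1, Selp, Tfpi2 and Tgm2), of 35 genes measured there, 3 of 36 in fibroblast-like (Comp, Thbs2 and Thbs3), 4 of 34 in macrophage-like (Adamts13, F5, Lrp1 and Serpinf2), 1 of 18 in lymphatic endothelial-like (Serpine2) and 2 of 22 in neutrophil-like nuclei (Entpd1 and F5). The shares of all genes that passed were 3.49%, 3.83%, 5.65%, 4.26% and 5.61% in these classes, in the same order. The median ratio of the list was 1.03 in endothelial-like nuclei, beside 1.01 over all genes, 1.09 beside 1.11 in fibroblast-like nuclei and 0.908 beside 1.00 in macrophage-like nuclei. In cardiomyocyte-like nuclei 0 of 36 listed genes passed upwards and 3 were 2-fold lower in every library (Entpd1, Selp and Tfpi2), beside 5.10% and 1.34% of all genes. The list's median ratio there was 0.641, beside 0.778 over all genes.

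Among anticoagulants, Entpd1, which degrades the platelet activator ADP, had 785, 268 and 531 CPM in neutrophil-like nuclei of libraries 2 to 4. Pros1, the cofactor of protein C, had 213, 149 and 146 CPM in lymphatic endothelial-like nuclei of libraries 1, 3 and 4. Tfpi, the inhibitor of tissue factor, had 129, 78.0 and 133 CPM there, near its level in other named nuclei at 147, 65.6 and 96.5 CPM. Gas6, placed in the same group of the list without being an established anticoagulant, had 166, 94.2, 139 and 138 CPM in cardiomyocyte-like nuclei. None of the last 3 passed the 2-fold rule.

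Of the clotting cofactors, F8, carried in blood by Vwf, was highest in endothelial-like nuclei at 219.6, 155, 82.1 and 90.2 CPM, with ratios to other named nuclei of 2.69, 1.37, 1.26 and 1.37. F5 had 45.3, 101 and 93.7 CPM in neutrophil-like nuclei of libraries 2 to 4, from 3, 114 and 12 UMIs. Selp, the adhesion protein stored in the same endothelial granules as Vwf, had 27.0, 184, 103 and 165 CPM in endothelial-like nuclei, with library 1 lowest, and 0.0792, 16.9, 9.98 and 19.3 CPM outside them. For Vwf the place of library 1 in these nuclei changed with scaling and subtype, as given above. Selp was also a marker used to name venous-like nuclei. By the finer clustering libraries 1 to 4 had 16, 13, 923 and 704 venous-like nuclei. The part of this makeup in the Selp values was not tested. The protease receptor gene F2rl1, listed in the group of thrombin and protease receptors, was at 17.0, 16.2, 7.25 and 7.95 CPM in endothelial-like nuclei. The value of library 2 came from 5 UMIs.

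Among inhibitors of proteases Serpine2, a thrombin inhibitor, had 64.4, 140.5 and 95.4 CPM in lymphatic endothelial-like nuclei, and Serpinf2, the plasmin inhibitor, 5.32, 12.3 and 16.7 CPM in macrophage-like nuclei of libraries 1, 3 and 4. The first rests on 1 UMI, with a ratio to other named nuclei of 2.74 (0.0672 to 16.5), so the pass of Serpinf2 in every library hangs on that UMI. Lrp1, the receptor that clears protease and inhibitor complexes, had 421, 904 and 969.9 CPM in macrophage-like nuclei. In the plasminogen-binding group Anxa2 had 543, 687 and 617 CPM in neutrophil-like nuclei of libraries 2 to 4.

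Of the relatives of the crosslinking and matrix genes, Tgm2, another transglutaminase, had 297, 353, 549 and 627 CPM in endothelial-like nuclei, and so led in another class than F13a1. Thbs2 had 123, 187, 290.5 and 149 CPM in fibroblast-like nuclei and passed the rule there, which Thbs1 did not. Thbs3 had 44.9, 49.9, 32.5 and 33.7 CPM in the same nuclei.

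Platelets carry VWF, factor XIII A chain and thrombospondin 1 as well. A list of 8 platelet or megakaryocyte markers had 7.36, 10.4, 119 and 52.3 CPM in all named nuclei of libraries 1 to 4. Of the 8 markers, 1, 4, 1 and 1 were at 0 there, with Ppbp at 0 in libraries 1, 2 and 3 and Gp1bb in libraries 2 and 4. In macrophage-like nuclei the markers summed to 95.8, 205 and 187 CPM in libraries 1, 3 and 4, with 6, 3 and 3 of the 8 at 0. In endothelial-like nuclei they summed to 13, 6.47, 104 and 43.2 CPM, with 4, 6, 2 and 2 at 0. Ppbp and Gp1bb were among those at 0 in endothelial-like nuclei of all 4 libraries. Their part in the values of Vwf, F13a1 and Thbs1 was not tested.

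The genes most like each of the 9 were found by Pearson's r of log2(CPM + 10) over 38 profiles of class and library, among 10409 genes. These profiles share libraries and depth, so r is a description. Vwf was most like Slco2a1 (0.88), Mest (0.86) and Ano2 (0.85), and Procr most like Hyal2 (0.86), Plvap (0.84) and Mest (0.83). Thbd was most like Ramp2 (0.82), Ifi27 (0.81) and Nxpe5l1 (0.81), and Plat most like Igfbp5 (0.78), Cd9 (0.76) and Mapk3 (0.75). F13a1 followed Apobec1 (0.91) and Folr2 (0.90), and Plau followed Grk3 (0.75), Tmem104 (0.75) and Clec4a1 (0.74). Thbs1 was most like Ccl7 (0.90), Aebp1 (0.89) and Gpx3 (0.89), Plaur most like Ppp1ca (0.90), Gdi2 (0.90) and Eif4a1 (0.89), and F3 most like Kctd15 (0.73), Igdcc4 (0.69) and Gstm2 (0.68). Among the 9 genes themselves the highest were Procr with Vwf (0.81) and Thbs1 with Plaur (0.73).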

How the data were processed

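The authors' matrix of unnormalized UMI counts (48637 barcodes, 108629374 UMIs) was written by cellranger 5.0.1, per the file headers. Per the submitters' processing notes, Cell Ranger 6.1.1, rn7 and Seurat were used. Nuclei were isolated in lysis buffer and libraries made with a 10x 3' kit, per the labels' protocols. Barcodes were kept from 500 UMIs and 300 genes upwards, up to 10% mitochondrial UMIs. The highest scrublet scores were removed, at 0.8% per 1000 nuclei (650, 1706, 2166 and 340 nuclei). With scanpy 1.11.5, 2000 variable genes without the pathway list, 30 principal components, 15 neighbours and Leiden clustering (resolution 1) gave 21 clusters, without integration; the finer clustering used resolution 2 and gave 35. A cluster took a class when at least 3 fixed markers were 2-fold higher and seen in 5% of nuclei, with a lead of 0.5 log2 over the next class; 4 clusters stayed unnamed. No cluster was named erythroid-like from haemoglobin genes alone, a rule outside the design fixed at the start.

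For CPM, UMIs were added up by class and library. Intervals are exact Poisson for CPM and conditional binomial for ratios. A gene entered a class with at least 30 UMIs in it. Free RNA was estimated per class and library and subtracted as an alternative. The calls were tested on simulated counts. All 9 genes are described; pathway genes are named when they have 30 UMIs in their leading class, at most 4 per list group, highest CPM first, and Entpd1, Selp and the others in the counts because they passed. F2r, S100a10, Eno1, Cd47, Itgb3, Ano6, Lman1, Mcfd2 and Ggcx meet that rule too and showed no pair past 2-fold in every library. The members, lists and rules were chosen with earlier results of these data known. Alternatives changed scaling, filters, doublets, free RNA, clustering, naming, folds and the use of library 2. Some genes that meet the naming rules are not reported here.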

Additional observations from a re-analysis of the deposited data

Results flagged for a closer look

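The unnamed nuclei of library 2, which no comparison between classes uses, carried UMIs of all 9 genes, each above the limit that a count of 0 allows. Vwf was at 241 CPM, Plaur at 192, Thbs1 at 173 and F13a1 at 116 CPM. Plat was at 83.7, Thbd at 72.1, Procr at 38.2, F3 at 35.6 and Plau at 7.10 CPM. The named nuclei of the same library had 284 CPM of Vwf, 135 of Plaur, 96.0 of Thbs1 and 69.8 of F13a1. These unnamed nuclei had no class under the marker rule, and which cells they came from was not tested. By the finer clustering 755 nuclei of library 2 formed a fibroblast-like cluster with 201 CPM of Thbs1 and 203 CPM of Plaur, and 758 an endothelial-like cluster with 358 CPM of Vwf and 92.3 CPM of Thbd.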

How the results depend on the processing

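The 4 pairs of gene and class past 2-fold were found again under 12 of the 13 alternatives, and under the other, where each cluster takes its highest class, Plau in macrophage-like nuclei was lost. Their number rose to 10 with free RNA subtracted, to 7 without library 2 and to 9 at 1.5-fold. The 3 genes spanning 4-fold between libraries became 5 when the list genes were kept among the variable genes, F3 and Thbs1 being added. They became 2 with median-of-ratios scaling, Procr being lost, and 2 with free RNA subtracted, F13a1 being lost. The 14 wider pathway pairs became 22 with free RNA subtracted and 6 when each cluster takes its highest class. Of 273 single values recomputed under alternatives, 207 stayed within their counting interval, 66 moved and 0 turned in direction; free RNA subtraction moved 23 and leaving the doublets in moved 17. The causes were not tested. No paired analysis was possible because the barcode suffixes carry no replicate number. Depth limits Plau, F3 and every class of library 2 most, and with 1 library per group no value has a replicate error.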
